A study of Mus musculus with 21 samples.

Results

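The 9 genes described here encode secreted or membrane-anchored growth factors of the EGF, PDGF, VEGF and IGF families, together with hepatocyte growth factor. They were chosen by name, as the rows of the count table with the symbols Hbegf, Areg, Ereg, Pdgfa, Pdgfb, Igf1, Hgf, Vegfb and Vegfc, and all 9 were among the 23420 genes of the table. Their levels were measured by bulk RNA-Seq in 21 libraries of inflammatory monocytes (IMs), sorted as CD45+ CD11b+ Ly6C hi Ly6G- cells, with Siglec-F+ cells left out, after enrichment with a monocyte isolation kit. Tumor-infiltrating IMs (TIMs) of the LN2E1 model came from primary tumors (n = 5) and from lymph node metastases (n = 5) of FVB mice that had received 500000 LN2E1 cells (KAL-LN2-E1, a lung squamous carcinoma line selected by passage in mice) in the lung. TIMs of the LN4K1 model (n = 5) came from the lungs of DBA2 mice given 300000 LN4K1 cells, a line derived from KLN-205, by vein. The controls were bone marrow IMs (BM IMs) of FVB mice (n = 3) and of DBA2 mice (n = 3) without tumors. Each line is a single selected line, and strain, line, route and organ differed at once between the models, so their parts cannot be told apart. TIMs and BM IMs also came from different organs, and the study describes its replicates as technical, so p-values measure the spread between these libraries only. In bulk samples, fewer cells of a type and less RNA per cell cannot be told apart.

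EGF-family ligands are made as membrane precursors, are cut loose by sheddases such as ADAM17, and act on EGFR and its ERBB relatives. PDGF-A and PDGF-B act on the PDGF receptors of mesenchymal cells, VEGF-B on FLT1, VEGF-C on FLT4 of lymphatic endothelium, IGF-1 on IGF1R and HGF on MET. Monocytes and macrophages are a known source of several of these factors in wounded and tumor tissue.

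The letters just before the start sites of Areg, Pdgfa and Igf1 are shown because, of 8 windows for the 6 of these genes with a window used here, these were the ones that held the cAMP response element (CRE), its core or the AP-1 letters. Each run is 250 bases of RefSeq sequence (GRCm38.p6), 5′ to 3′ on the strand of the gene and ending at the base before the start site, with the matches in capitals. Areg lies on the plus strand (chr5:91139349-91139598), Pdgfa on the minus strand (chr5:138994945-138995194) and Igf1 on the plus strand (chr10:87860861-87861110). The Pdgfa and Igf1 windows belong to RefSeq start sites inside the gene spans given below, and positions are counted from those sites. The other Pdgfa window held none of these letters.
Areg: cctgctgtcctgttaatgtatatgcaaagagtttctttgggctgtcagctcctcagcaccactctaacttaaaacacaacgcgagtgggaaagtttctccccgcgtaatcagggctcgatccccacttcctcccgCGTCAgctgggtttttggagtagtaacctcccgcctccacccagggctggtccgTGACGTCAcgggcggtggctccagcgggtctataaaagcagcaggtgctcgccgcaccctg
Pdgfa: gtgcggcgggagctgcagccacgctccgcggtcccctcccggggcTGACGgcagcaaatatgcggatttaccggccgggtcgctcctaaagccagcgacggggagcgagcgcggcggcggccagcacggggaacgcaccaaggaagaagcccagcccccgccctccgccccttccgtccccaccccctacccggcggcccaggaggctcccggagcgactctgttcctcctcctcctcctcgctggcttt
Igf1: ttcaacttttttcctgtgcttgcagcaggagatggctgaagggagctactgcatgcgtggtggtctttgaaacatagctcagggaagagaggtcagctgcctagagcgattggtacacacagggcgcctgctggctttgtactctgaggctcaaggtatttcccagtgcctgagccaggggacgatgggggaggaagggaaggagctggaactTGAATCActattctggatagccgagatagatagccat
The full CRE letters TGACGTCA stood in the Areg window at position -61 from the start site, and 1.55% of 32851 mouse promoter windows of the same length held them on either strand. The shorter core TGACG, which is part of the full element, also stood apart from it on the other strand of Areg at -115 and in Pdgfa at -205, against 17.8% of all windows. The AP-1 letters TGANTCA stood in Igf1 at -37, against 6.75% of all windows. The letters TATAAA (in 12.4% of all windows) lay at -31 in Areg, and the EGR letters GCGGGGGCG (in 2.57%) lay on the other strand at -120 in Vegfb. The hypoxia letters ACGTG (in 16.6%) and the NF-kB motif (in 1.41%) were not found in these 8 windows. These are matches of letters, and binding was not measured.

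Each library held between 80772922 and 101043568 counts on genes. Values are given as CPM, the counts of a gene relative to the TMM-scaled total of its library, and 3 counts, the limit that a count of 0 allows by counting error alone, equal between 0.0268 and 0.0405 CPM. Genes of the sort were high throughout, since the lowest library had 258 CPM of Itgam (CD11b) and 974 CPM of Ly6c2, and Ccr2, a chemokine receptor of monocytes that was not used in the sort, was at least 704 CPM. Marker genes of other cells also differed between the groups, as the plot of marker lists shows. The 8 fibroblast genes summed to between 385 and 1161 CPM in the primary tumor libraries, 12.5 and 114 CPM in those of lymph nodes, 1.81 and 43.1 CPM in LN4K1 lung TIMs, 6.65 and 9.95 CPM in FVB BM IMs and 0.0998 and 1.39 CPM in DBA2 BM IMs, with Lum at 0 in both BM groups. The 6 lung epithelium genes reached between 156 and 881 CPM in primary tumor TIMs and between 7.58 and 106 CPM in LN4K1 lung TIMs, against at most 2.60 CPM in every other library. The 8 squamous and other epithelial genes lay between 59.7 and 104 CPM in primary tumors, 10.0 and 140 CPM in lymph nodes and 1.27 and 119 CPM in LN4K1 lung TIMs, against at most 2.44 CPM in BM IMs, while Trp63, which defines squamous epithelium, stayed at or under 0.10 CPM in all libraries. In lymph nodes nearly all of this sum was Cdh1 (8.14 to 136 CPM), while Krt8 was at most 0.107 CPM and Krt18 at most 0.505 CPM, and Trp63 and Krt6a were at 0. Conversely, the 7 neutrophil precursor genes summed to between 2811 and 4955 CPM in BM IMs and to at most 494 CPM in TIMs. Lymph node TIM replicate 1 stood apart, with 464 CPM of basophil and mast cell genes against 4.11 to 22.6 CPM in the other lymph node libraries and with the fewest genes at 10 counts or more (11047). LN4K1 lung TIM replicate 3 stood apart in many lists at once. It had 1.27 CPM of squamous and other epithelial genes against 62.9 to 119 CPM in the other libraries of its group, 123525 CPM of monocyte genes against 69522 to 84436 CPM, 115165 CPM of Lyz2 against 58648 to 75434 CPM and 347 CPM of dendritic cell genes against 129 to 202 CPM. It also had the lowest Itgam (327 CPM) and Csf1r (785 CPM) and the fewest genes at 10 counts or more (12015) of its group.

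**Figure D1:**
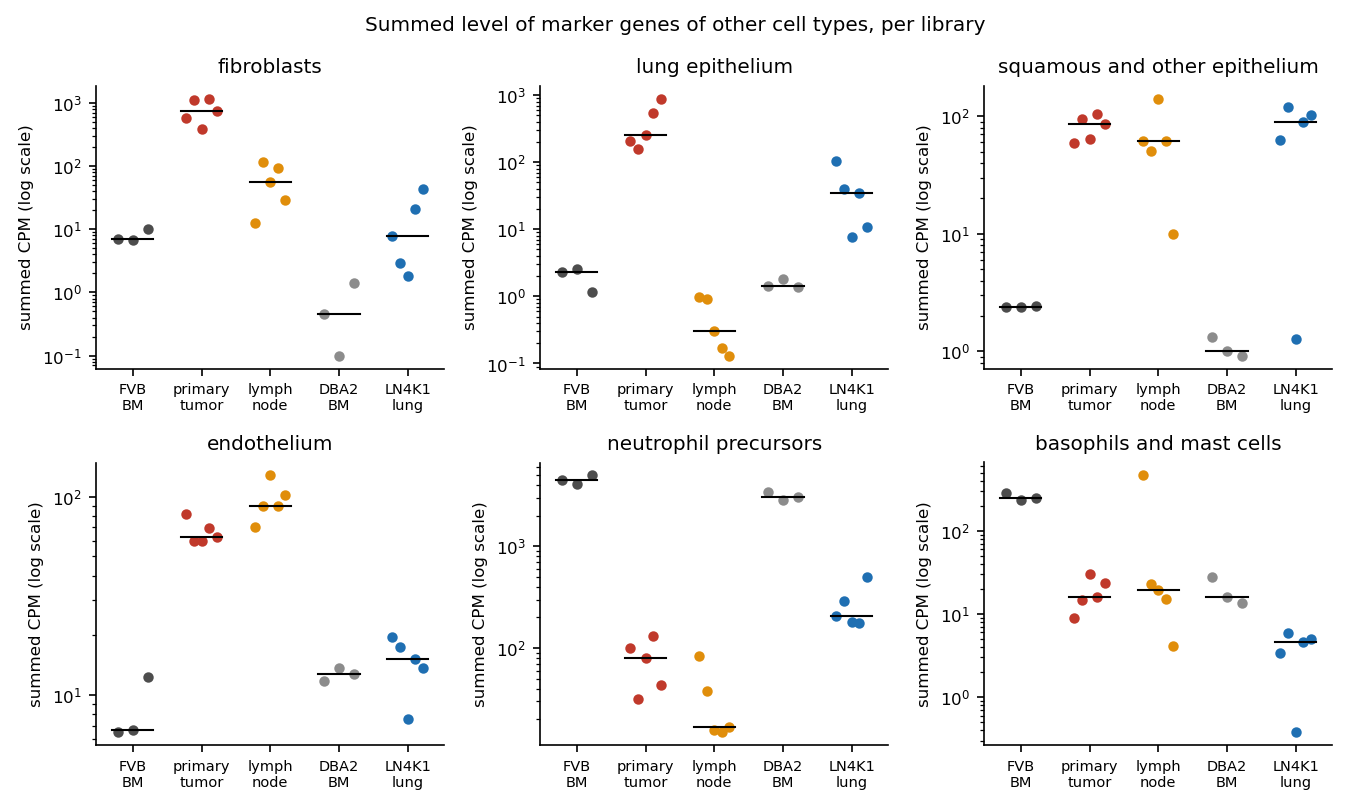
Summed CPM of the marker genes of 6 other cell types (vertical axes, log scale) in each of the 21 libraries (points) of the 5 groups (horizontal axis), with the group median as a line. Fibroblast and lung epithelium sums were highest in primary tumor TIMs (at least 385 and 156 CPM), neutrophil precursor sums were highest in BM IMs (at least 2811 CPM), and lymph node TIM replicate 1 had 464 CPM of basophil and mast cell genes.

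Primary tumor TIMs had more Hbegf, Areg, Pdgfa and Hgf than FVB BM IMs, and Ereg and Vegfc were also called higher, with a limit given below. The test was edgeR's quasi-likelihood test with a Benjamini-Hochberg adjusted p under 0.05 over all genes. It called 6 of 9 ligands higher and none lower, where 33.3% of the 14569 genes tested rose and 28.6% fell. In lymph node TIMs, 2 of the 8 ligands tested rose (Hbegf and Hgf) and none fell, where 20.2% of 13273 genes rose and 17.2% fell. In LN4K1 lung TIMs against DBA2 BM IMs, 4 of 9 rose (Hbegf, Areg, Ereg and Pdgfa) and none fell, where 13.9% of 13624 genes rose and 11.0% fell. A gene with fewer than 10 counts in every BM IM library could enter these tests only through its TIM libraries, so its call is no support for a rise. Among the ligands this held for Ereg, and without it 5 of 8 ligands rose in primary tumors and 3 of 8 in LN4K1 lungs. Vegfc, with 1, 0 and 26 counts in the FVB libraries, also entered mainly through TIM libraries. Its call in primary tumors, which is among these 5, is thus no support for a rise either. The libraries of the groups did not overlap for 6 (5 without Ereg, with Vegfc still among them), 3 and 4 ligands in these comparisons, where they did not for 58.1%, 42.9% and 34.8% of all genes tested. The median log2 fold change of the ligands without Ereg was 1.45, 1.34 and 1.19 (1.73, 1.34 and 1.96 with it), beside medians of 0.08, -0.04 and 0.03 over all genes tested. These medians include Vegfc, which had 12, 0 and 2 counts in the DBA2 libraries. Without Vegfc and Ereg, the middle ligand was Hgf in primary tumors (1.17), Pdgfa in lymph nodes (1.13) and Pdgfb in LN4K1 lungs (0.42). Lymph node and primary tumor TIMs were set against the same FVB libraries, so their changes are not independent. By the study's stricter rule, an adjusted p under 0.0001 with an absolute log2 fold change above 1, edgeR called Hbegf alone and in LN4K1 lung TIMs alone, where 2.97% of all genes passed in either direction, and this call was lost without DBA2 BM IM replicate 1 or 3. In primary tumor and lymph node TIMs this rule called 0 ligands by edgeR, where 12.9% and 5.71% of all genes passed, and 5 and 2 by DESeq2, where 27.0% and 17.6% of all genes passed. The 5 include Ereg, whose call is no support for a rise. An unadjusted edgeR p under 0.05 was reached by 6 (Ereg and Vegfc among them) and 3 ligands, where 65.7% and 45.8% of all genes reached it.

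**Figure D2:**
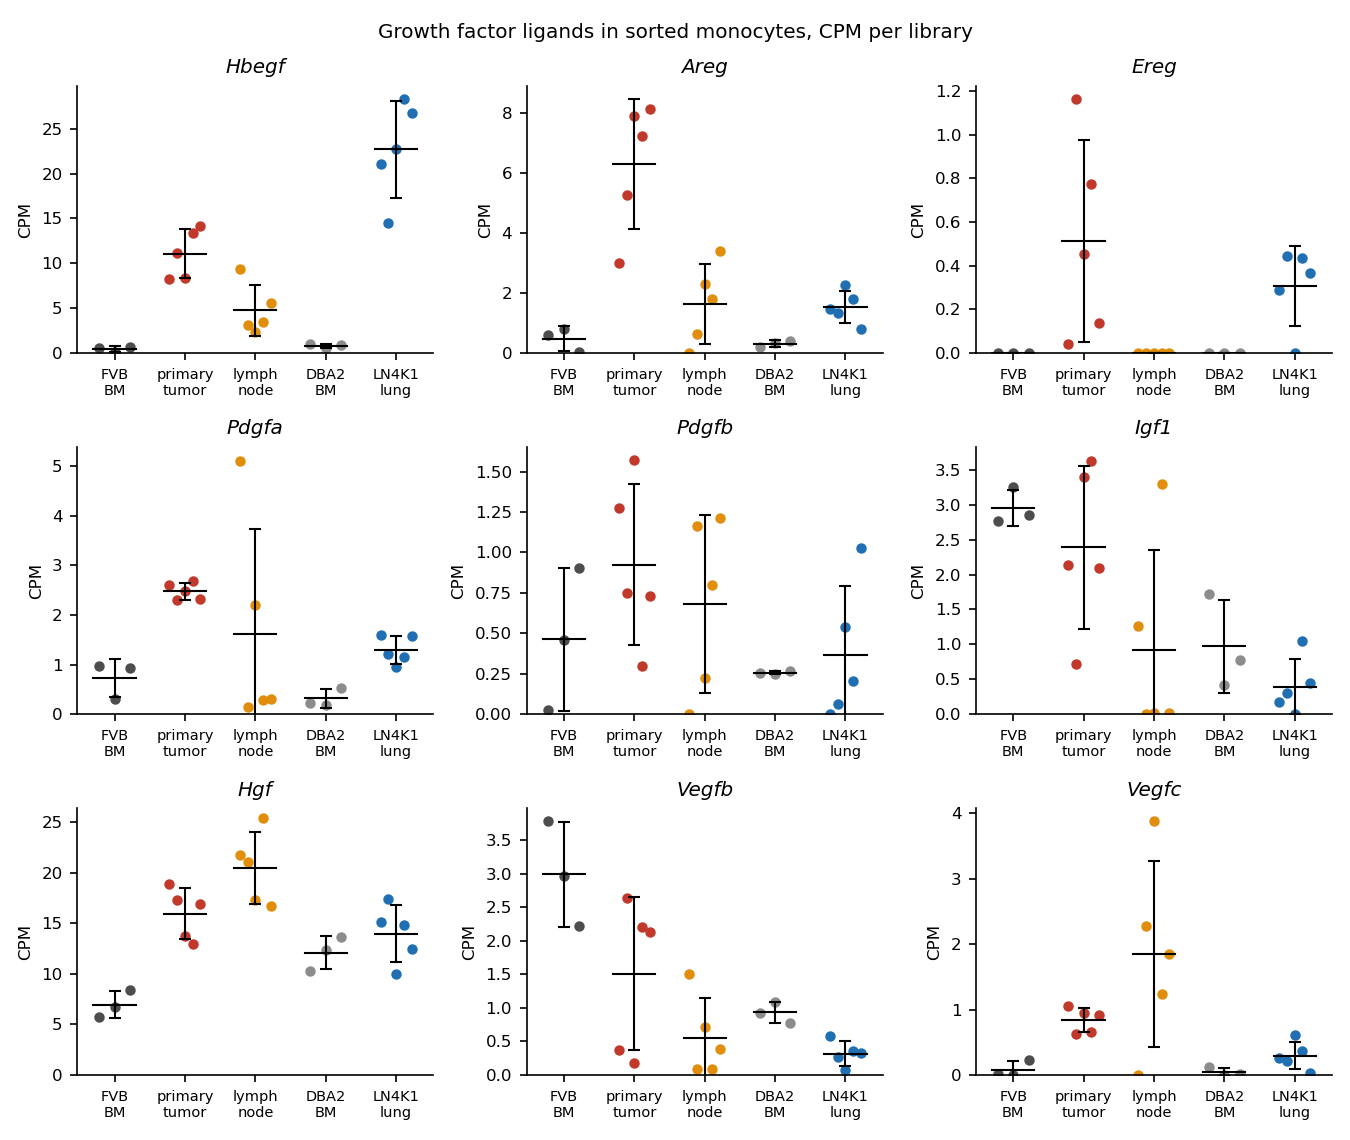
CPM of each ligand (vertical axes, from 0) in each of the 21 libraries (points) of the 5 groups (horizontal axis), with the group mean as a line and 1 SD as a bar, cut off at 0. Hbegf was highest in LN4K1 lung TIMs (14.5 to 28.4 CPM) and Areg in primary tumor TIMs (2.98 to 8.13 CPM), and Ereg was at 0 in all lymph node and BM libraries.

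Hbegf encodes heparin-binding EGF-like growth factor, a ligand of EGFR and ERBB4 that macrophages are known to make. It had 0.602, 0.0713 and 0.634 CPM in the FVB BM IM libraries and 1.02, 0.559 and 0.876 CPM in the DBA2 BM IM libraries. Primary tumor TIMs had 8.21, 11.1, 8.41, 13.4 and 14.2 CPM. Lymph node TIMs had 9.33, 3.14, 2.32, 3.49 and 5.56 CPM, and LN4K1 lung TIMs had 21.1, 14.5, 22.8, 28.4 and 26.7 CPM. Every TIM library thus lay above every BM IM library. Hbegf rose 24.8-fold in primary tumors (log2 fold change 4.63 ± 0.61, SE; adjusted p = 0.000153), 10.9-fold in lymph nodes (3.44 ± 0.88; adjusted p = 0.0118) and 26.3-fold in LN4K1 lungs (4.71 ± 0.33; adjusted p = 9.91e-06). Leaving out any 1 library kept these calls, with fold changes between 4.16 and 5.04, 2.93 and 3.83, and 4.50 and 4.90 on the log2 scale over all alternatives run. The sum of 8 macrophage genes, most of it Apoe and Cd68, was higher in TIMs than in BM IMs, as Hbegf was. It was between 4396 and 6086 CPM in LN4K1 lung TIMs, 2868 and 3662 CPM in primary tumors and 3007 and 4559 CPM in lymph nodes. BM IMs had 1718 to 1989 CPM in FVB and 1261 to 2427 CPM in DBA2 mice. By median, C1qa, C1qb, C1qc and Folr2 were lower in LN4K1 lung TIMs (2.94, 7.08, 5.03 and 25.0 CPM) than in DBA2 BM IMs (7.58, 14.5, 9.77 and 36.7 CPM). Apoe, Cd68, Mrc1 and Mertk were higher there. None of the 8 genes was at 0 in any group, and their part in the Hbegf levels was not tested. The gene spans chr18:36504927-36515805 on the minus strand (GRCm38, GENCODE vM21).

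Areg encodes amphiregulin, an EGFR ligand of epithelial repair that immune cells can also secrete. FVB BM IMs had 0.591, 0.815 and 0.0268 CPM, the last from 3 counts, and DBA2 BM IMs had 0.195, 0.319 and 0.412 CPM. Primary tumor TIMs had 2.98, 5.28, 7.91, 7.22 and 8.13 CPM, and LN4K1 lung TIMs had 1.46, 1.32, 2.27, 1.81 and 0.814 CPM. In both models the TIM and BM IM ranges did not overlap. Lymph node TIMs had 0, 0.649, 2.30, 1.81 and 3.40 CPM and overlapped FVB BM IMs, with replicate 1 at 0. Areg rose 13.2-fold in primary tumors (log2 fold change 3.72 ± 0.82; adjusted p = 0.00327) and 4.70-fold in LN4K1 lungs (2.23 ± 0.56; adjusted p = 0.0178). The lymph node difference did not pass the test (1.78 ± 1.61; adjusted p = 0.431, or 2.10 with adjusted p = 0.134 without replicate 1). The call in LN4K1 lungs was lost without DBA2 BM IM replicate 1 (adjusted p = 0.0676) or replicate 2 (0.0604) and when all 5 groups were fitted together (0.132). Areg lies on the plus strand at chr5:91139599-91148432, downstream of Ereg, and its exons overlap no other gene.

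Ereg encodes epiregulin, an EGFR and ERBB4 ligand made by inflammatory myeloid cells and by some epithelia. It had 0 counts in all FVB BM IM, DBA2 BM IM and lymph node TIM libraries. Primary tumor TIMs had 0.0431, 1.16, 0.454, 0.773 and 0.140 CPM, from between 4 and 103 counts, and LN4K1 lung TIMs had 0.290, 0.443, 0, 0.434 and 0.368 CPM, with replicate 3 at 0. Against a limit of 3 counts in each BM IM library, mean Ereg in primary tumor TIMs was at least 16.9-fold higher and that in LN4K1 lungs at least 9.97-fold higher. Ereg passed the filter on low counts only through the TIM groups, so no p is given for it, and it could not be tested in lymph nodes. In LN4K1 lungs its call was lost when any library but replicate 3 was left out, in 7 fits. Replicate 3 was also the LN4K1 lung library that stood apart in many marker lists, and their part in the Ereg counts was not tested. The gene (chr5:91074622-91093646, plus strand) overlaps the exons of Gm19610 on the opposite strand, and reads of the pair cannot be told apart without strand.

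Pdgfa and Pdgfb encode the chains of platelet-derived growth factor, which draws and expands mesenchymal cells. In the FVB BM libraries Pdgfa stood at 0.977, 0.295 and 0.929 CPM, and in the primary tumor libraries it stood at 2.61, 2.29, 2.49, 2.69 and 2.33 CPM, with an SD of only 0.174 CPM. DBA2 BM IMs had 0.226, 0.190 and 0.528 CPM and LN4K1 lung TIMs 1.60, 1.20, 0.945, 1.16 and 1.58 CPM. Neither pair of ranges overlapped. Lymph node TIMs were split, with 5.11 and 2.21 CPM in replicates 1 and 3 and 0.132, 0.283 and 0.309 CPM in the rest. Pdgfa rose 3.32-fold in primary tumors (log2 fold change 1.73 ± 0.42; adjusted p = 0.00565) and 3.90-fold in LN4K1 lungs (1.96 ± 0.58; adjusted p = 0.0343), and did not pass the test in lymph nodes (1.13 ± 1.27; adjusted p = 0.532, or 0.00 with adjusted p = 0.998 without replicate 1). When all 5 groups were fitted together both calls were lost (adjusted p = 0.120 in each). The LN4K1 lung call was also lost without DBA2 BM IM replicate 1 or 2 (adjusted p = 0.113 and 0.116) or without LN4K1 lung TIM replicate 1, 2, 4 or 5 (0.0734, 0.0575, 0.0610 and 0.0688). The gene (chr5:138976014-138997370, minus strand) overlaps exons of 6330403L08Rik on the opposite strand. Pdgfb (chr15:79995874-80014977, minus strand) did not pass the test in any comparison. Its libraries ranged from 0.0227 to 0.902 CPM in FVB bone marrow, 0.298 to 1.57 CPM in primary tumors, 0 to 1.21 CPM in lymph nodes, 0.249 to 0.264 CPM in DBA2 BM IMs and 0 to 1.03 CPM in LN4K1 lung TIMs. The log2 fold changes of Pdgfb were 0.96 ± 0.93, 0.55 ± 1.57 and 0.42 ± 1.32, so that changes of several-fold in either direction lay within their error in lymph nodes and LN4K1 lungs.

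Hgf encodes hepatocyte growth factor, the ligand of MET that drives motility and growth of epithelial cells. FVB BM IMs had 5.71, 6.77 and 8.42 CPM. Primary tumor TIMs had 18.8, 17.3, 13.7, 12.9 and 16.9 CPM and lymph node TIMs had 21.7, 21.1, 17.3, 25.4 and 16.7 CPM, so all 10 TIM libraries of the LN2E1 model lay above the 3 BM IM libraries. DBA2 BM IMs had 10.3, 12.3 and 13.6 CPM and LN4K1 lung TIMs had 15.1, 17.4, 9.95, 14.9 and 12.5 CPM, which overlap. Hgf rose 2.25-fold in primary tumors (log2 fold change 1.17 ± 0.19; adjusted p = 0.000569) and 2.93-fold in lymph nodes (1.55 ± 0.25; adjusted p = 0.000846), and both calls held in all alternatives and all fits without 1 library. In LN4K1 lungs the log2 fold change was 0.13 ± 0.21 (adjusted p = 0.701). The change in primary tumors was larger than that in LN4K1 lungs by 1.05 ± 0.28 on the log2 scale, tested as an interaction (adjusted p = 0.0136), the only 1 of 9 ligands past the threshold, where 26.5% of 15182 genes were (13.2% with the larger change in primary tumors). Without FVB BM IM replicate 1 this call was lost (0.87; adjusted p = 0.0503). The BM IM ranges of the strains did not overlap, and DBA2 BM IMs had 1.76-fold more Hgf than FVB BM IMs (0.81 ± 0.22; adjusted p = 0.0332), whereas the ranges of primary tumor and LN4K1 lung TIMs overlapped (two-sided exact permutation p = 0.286, adjusted p = 0.635). The strain call was lost without FVB BM IM replicate 1 or 2 (adjusted p = 0.102 and 0.113) or DBA2 BM IM replicate 2 or 3 (0.0928 and 0.118). Hgf lies at chr5:16553495-16620152 on the plus strand and shares exon sequence with Gm43489 on the same strand.

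Igf1 encodes insulin-like growth factor 1, which tissue macrophages make during repair. Its fold change was below 0 in all 3 comparisons with BM IMs, but no difference passed the test. FVB BM IMs had 2.76, 3.25 and 2.86 CPM, and primary tumor TIMs had 2.13, 0.723, 3.40, 3.62 and 2.09 CPM. Lymph node TIMs had 1.26, 0, 0.0119, 3.30 and 0.0119 CPM, so that replicates 1 and 4 held nearly all of the counts. DBA2 BM IMs had 1.71, 0.409 and 0.781 CPM and LN4K1 lung TIMs had 0.174, 0.306, 0, 1.04 and 0.446 CPM. The log2 fold changes of Igf1 were -0.32 ± 0.45 in primary tumors (adjusted p = 0.555), -1.69 ± 1.68 in lymph nodes (0.479) and -1.37 ± 1.15 in LN4K1 lungs (0.433). All DBA2 BM IM libraries lay below the FVB libraries, but this difference did not pass the test (-1.58 ± 0.52; adjusted p = 0.0642, or -2.29 with adjusted p = 0.0213 without DBA2 BM IM replicate 1). Igf1 spans chr10:87858265-87937042 on the plus strand.

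**Figure D3:**
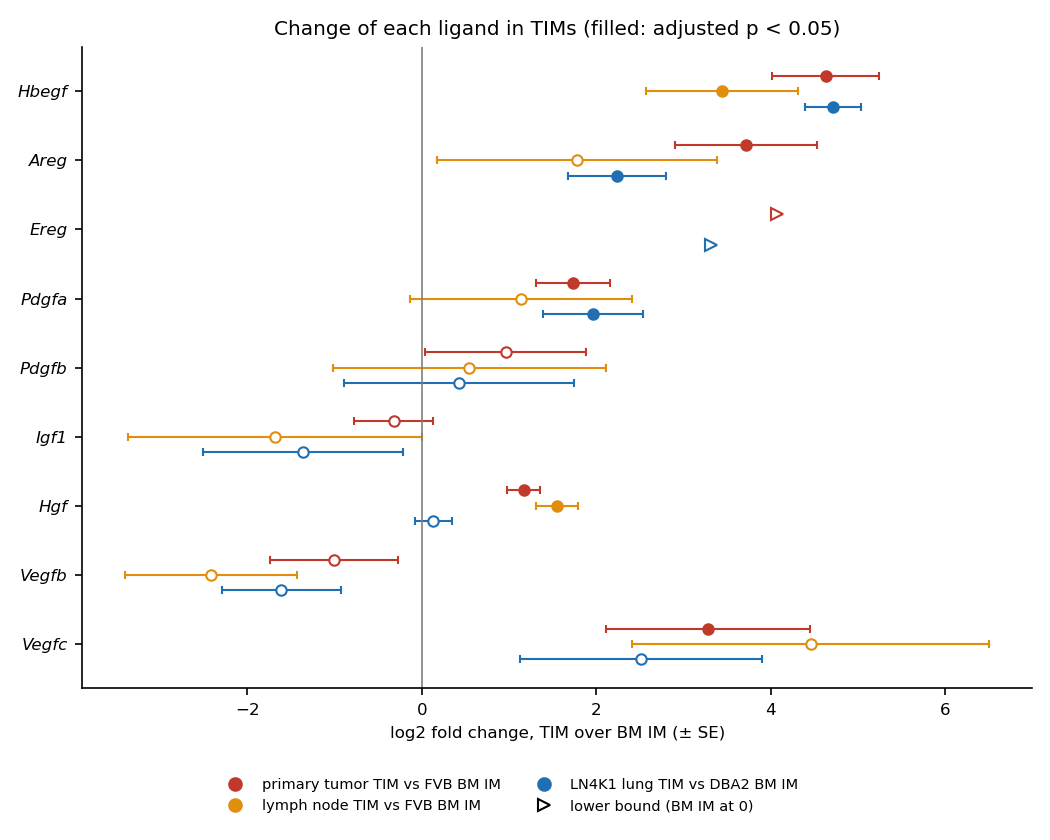
Log2 fold change of each ligand (horizontal axis, ± SE) in primary tumor and lymph node TIMs over FVB BM IMs and in LN4K1 lung TIMs over DBA2 BM IMs, with filled circles at an adjusted p under 0.05 and open triangles, which stand for no test, at the lower bounds where BM IMs were at 0. Hbegf lay between 3.44 and 4.71 in all 3 comparisons, whereas Hgf lay at 1.17 and 1.55 in the LN2E1 model and at 0.13 in LN4K1 lungs.

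The fold changes of Vegfb and Vegfc had opposite signs in all 3 comparisons with BM IMs, but Vegfb passed the test in none of them and the contrast was not tested. Vegfb encodes a FLT1 ligand linked to vessel survival and fatty acid uptake, and Vegfc the chief growth factor of lymphatic vessels. The FVB BM libraries had 3.78, 2.97 and 2.22 CPM of Vegfb, those of primary tumors 0.377, 2.63, 0.186, 2.21 and 2.13 CPM and those of lymph nodes 1.50, 0.0927, 0.713, 0.0862 and 0.380 CPM. It had 0.924, 1.09 and 0.781 CPM in DBA2 BM IMs and 0.580, 0.264, 0.0810, 0.352 and 0.324 CPM in LN4K1 lung TIMs. All lymph node libraries lay below the FVB libraries and all LN4K1 lung libraries below the DBA2 libraries, but the test was not passed (log2 fold change -2.42 ± 0.98 with adjusted p = 0.0804, and -1.61 ± 0.68 with adjusted p = 0.115), nor in primary tumors (-1.01 ± 0.73; adjusted p = 0.259). Without lymph node TIM replicate 1 the lymph node difference was called (-3.22; adjusted p = 0.0126). Vegfb was lower in DBA2 than in FVB BM IMs (0.318 of the FVB level; -1.65 ± 0.37; adjusted p = 0.0171), a call lost without FVB BM IM replicate 1 or 2 (0.0759 and 0.0610), without DBA2 BM IM replicate 3 (0.0625) and when all 5 groups were fitted together (0.340). Hgf and Vegfb were 2 of the 7 ligands tested between the strains, where 21.1% of 12905 genes were called in either direction.

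Vegfc was near its limit in BM IMs, with 0.0114, 0 and 0.232 CPM in FVB and 0.123, 0 and 0.0211 CPM in DBA2 libraries. Primary tumor TIMs had 1.06, 0.633, 0.942, 0.663 and 0.918 CPM, all above the FVB range. Lymph node TIMs held the highest values, 2.28, 3.88, 1.24 and 1.85 CPM, but replicate 1 had 0 counts. LN4K1 lung TIMs had 0.267, 0.211, 0.608, 0.362 and 0.0335 CPM and overlapped DBA2 BM IMs. Vegfc was called higher in primary tumors (log2 fold change 3.28 ± 1.17; adjusted p = 0.0333), a call lost without FVB BM IM replicate 1 (adjusted p = 0.0800) or primary tumor TIM replicate 1 or 5 (0.0542 and 0.0560) and with all 5 groups fitted together (0.0879). With 1, 0 and 26 counts in FVB BM IMs, Vegfc passed the filter on low counts mainly through TIM libraries. Calls of Vegfc against these FVB libraries are thus no support for a rise. The difference was 4.46 ± 2.05 in lymph nodes (adjusted p = 0.117, or 4.77 with adjusted p = 0.0204 without replicate 1) and 2.52 ± 1.39 in LN4K1 lungs (adjusted p = 0.226). The sum of 7 endothelial genes was between 59.5 and 81.6 CPM in primary tumors and 70.7 and 128 CPM in lymph nodes, against at most 12.3 CPM in FVB BM IMs. Most of it was Pecam1, which leukocytes also carry (40.4 to 59.2 CPM and 52.7 to 97.4 CPM). In lymph nodes Tek and Emcn were at 0 and Cldn5 was at most 0.0493 CPM, while Cdh5 lay between 0.392 and 4.54 CPM and Kdr between 0 and 9.29 CPM. Lymph node replicate 1 had 70.7 CPM of this sum and no Vegfc. Fibroblast sums were lower in lymph nodes (12.5 to 114 CPM) than in primary tumors (at least 385 CPM), whereas mean Vegfc was 1.85 and 0.842 CPM. The part of these cells in the Vegfc levels was not tested. Vegfb spans chr19:6982473-6987651 on the minus strand and Vegfc chr8:54077606-54187096 on the plus strand.

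Between the sites of the LN2E1 model, edgeR called 0 of 8 ligands, where 11.7% of 13488 genes were called in either direction, while 2 (Hbegf and Hgf) had an unadjusted p under 0.05 (25.8% of all genes) and DESeq2 called 1 (17.9% of all genes). Hbegf in lymph node TIMs was 0.434 of the primary tumor level (log2 fold change -1.21 ± 0.37; adjusted p = 0.0588) and Areg 0.261 of it (-1.94 ± 0.94; adjusted p = 0.223). Whether these differences were called depended on lymph node TIM replicate 1, which had the highest Hbegf and Pdgfa and no Areg or Vegfc in its group. Without it 4 ligands were called, where 16.2% of 13935 genes were. Hbegf (-1.60; adjusted p = 0.00526) and Areg (-1.61; adjusted p = 0.0373) were lower in lymph nodes, and Vegfc was higher (1.47; adjusted p = 0.0478). The other call was of Ereg, which was at 0 in all lymph node libraries. Ereg was left out of the reported fit by the filter on low counts and entered other fits only through the primary tumor libraries, so its p is not given.

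Per kilobase of exon, the level that allows genes to be compared, the leading ligands differed by group. Vegfb led in FVB BM IMs, at a mean of 1.86 CPM per kilobase, and Hgf in DBA2 BM IMs at 1.68. Areg led in primary tumor TIMs with a level of 5.19 CPM per kilobase, ahead of Hbegf at 2.29 and Hgf at 2.22. Hgf led in lymph node TIMs at 2.84 CPM per kilobase, and Hbegf in LN4K1 lung TIMs at 4.70. Ereg was last in every group but LN4K1 lung TIMs, where its level of 0.0744 CPM per kilobase stood above that of Igf1 at 0.0398. Across groups, neighbouring groups in the order of mean log2 CPM overlapped in 30 of 36 pairs over the 9 ligands, and none of the 36 two-sided exact permutation tests passed after adjustment (smallest adjusted p = 0.0714, 6 with an unadjusted p under 0.05). With 5 libraries against 5 the smallest p possible was 0.00794, with 5 against 3 it was 0.0357 and with 3 against 3 it was 0.1. That smallest p was reached where LN4K1 lung TIMs exceeded primary tumor TIMs in Hbegf and where primary tumor TIMs exceeded LN4K1 lung TIMs in Areg, Pdgfa and Vegfc (exact permutation p = 0.00794 and adjusted p = 0.0714 for each), across different strains, lines and routes. As the order of levels, Hbegf ran from LN4K1 lung through primary tumor and lymph node TIMs to DBA2 and FVB BM IMs. Hgf ran from lymph node through primary tumor and LN4K1 lung TIMs to DBA2 and FVB BM IMs, with only the last pair free of overlap. The order of Areg and Pdgfa began with primary tumor TIMs, and that of Igf1 and Vegfb with FVB BM IMs.

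The other ligands of these families were read from lists of 7 EGF-family genes and 8 PDGF, VEGF, IGF and HGF-family genes, of which 7 were in the table. Over all genes tested, 33.3% rose and 28.6% fell in primary tumors, 20.2% and 17.2% in lymph nodes, and 13.9% and 11.0% in LN4K1 lungs. Of the 7 other EGF-family ligands, 3 rose and 2 fell in primary tumors, none of the 4 tested passed in lymph nodes and 1 of 7 rose in LN4K1 lungs. Tgfa and Btc had fewer than 10 counts in every BM IM library. Without this pair 1 of 5 rose and 2 fell in primary tumors, and the median log2 fold changes were -1.47, -1.79 and -1.19 (0.92, -1.79 and -0.15 with it), so the sign of the primary tumor median rested on the pair. Btc, which encodes betacellulin, had 0 counts in all BM IM and lymph node TIM libraries, and between 0.269 and 1.31 CPM in primary tumor TIMs and 0.0135 and 0.960 CPM in LN4K1 lung TIMs. Its mean exceeded the limit in BM IMs by at least 25.3-fold in primary tumors and at least 11.8-fold in LN4K1 lungs. Of the other PDGF, VEGF, IGF and HGF-family ligands, 4 of 5 rose in primary tumors, 1 of 5 in lymph nodes and 1 of 4 in LN4K1 lungs, with medians of 4.03, 1.30 and 1.94. The 4 include Figf, with 0 to 17 counts in the FVB libraries, and Pdgfc, with 1 to 21. Like Vegfc, both entered mainly through TIM libraries, so their calls are no support for a rise. The medians include them where they were tested. Pgf, encoding placental growth factor, a FLT1 ligand, rose 14.5-fold in primary tumors (3.86 ± 0.64; adjusted p = 0.000579) and 12.7-fold in LN4K1 lungs (3.67 ± 0.36; adjusted p = 8.33e-05), and did not pass in lymph nodes (2.10 ± 1.32; adjusted p = 0.250).

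Vegfa, the main angiogenic member of the VEGF family, averaged 11.3 ± 3.64 CPM (SD) over the FVB BM libraries, 187 ± 44.4 CPM over those of primary tumors and 190 ± 59.8 CPM over those of lymph nodes. It had 23.1 ± 7.22 CPM in DBA2 BM IMs and 28.0 ± 6.47 CPM in LN4K1 lung TIMs. Vegfa rose 16.3-fold and 16.8-fold at the LN2E1 sites (adjusted p = 3.18e-06 and 1.43e-05), and its log2 fold change in LN4K1 lungs was 0.20 ± 0.24 (adjusted p = 0.599). The changes in primary tumors and LN4K1 lungs differed by 3.85 ± 0.37 on the log2 scale (adjusted p = 2.50e-05). Its level per kilobase of exon, 43.7 CPM in primary tumor TIMs, exceeded that of Vegfb (0.939) and Vegfc (0.344) there.

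Of the 16 receptors and co-receptors, 10 of 15 rose and 1 fell in primary tumors, 5 of 14 rose in lymph nodes, and 1 of 14 rose and 1 fell in LN4K1 lungs, with medians of 1.70, 1.33 and 0.36 on the log2 scale. Among all genes tested, 33.3%, 20.2% and 13.9% rose in these comparisons, and 28.6%, 17.2% and 11.0% fell. Without Egfr and Pdgfra, which had fewer than 10 counts in every FVB library, 8 of 13 rose in primary tumors, and without Egfr 4 of 13 rose in lymph nodes. Met, the HGF receptor, rose at both LN2E1 sites and fell in LN4K1 lungs. Met averaged 27.6 CPM in FVB bone marrow, 84.7 CPM in primary tumors and 65.8 CPM in lymph nodes, but 63.5 CPM in DBA2 bone marrow and 29.7 CPM in LN4K1 lungs. The log2 fold changes of Met were 1.59 ± 0.19 (adjusted p = 9.03e-05), 1.25 ± 0.28 (0.00649) and -1.17 ± 0.20 (0.00261), and the changes in primary tumors and LN4K1 lungs differed by 2.78 ± 0.30 (4.52e-05). Flt1, a receptor of VEGF-A, VEGF-B and placental growth factor, rose in all 3 comparisons (2.46 ± 0.24, 2.65 ± 0.50 and 1.92 ± 0.33). Nrp2, a co-receptor of VEGF-C, rose 7.36-fold in primary tumors and 4.02-fold in lymph nodes, with a log2 fold change of 0.83 ± 0.44 in LN4K1 lungs (adjusted p = 0.213). Pdgfrb, the receptor of PDGF-B, rose by 1.70 ± 0.28 and 1.41 ± 0.30 at the LN2E1 sites, with 1.22 ± 1.50 in LN4K1 lungs. Egfr, the receptor of the EGF-family ligands, had at most 5 counts in any BM IM library and means of 1.53 CPM in primary tumors and 2.74 CPM in lymph nodes, where 1 library was at 0. Pdgfrb is also a fibroblast marker, and Egfr is known from epithelium and fibroblasts, whose sums were higher in the same groups, and their part was not tested.

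Among 19 sheddases, convertases and their partners, 13 of 18 rose and 1 fell in primary tumors, 8 of 13 rose in lymph nodes, and 6 of 15 rose and 1 fell in LN4K1 lungs, with medians of 1.85, 1.31 and 0.95. The shares of all genes that rose were 33.3%, 20.2% and 13.9%, and those that fell were 28.6%, 17.2% and 11.0%. Without the genes that had fewer than 10 counts in every BM IM library (Pcsk5, Plat, Spint1 and Ccbe1 in FVB, and Plat, Hgfac and Spint1 in DBA2 mice), 9 of 14, 7 of 12 and 4 of 12 rose, with medians of 1.24, 1.14 and 0.34. Adam8, a metalloprotease of myeloid cells, rose 43.6-fold in primary tumors (from 17.7 to 785 CPM), 30.4-fold in lymph nodes and 5.51-fold in LN4K1 lungs (adjusted p = 1.25e-06, 2.98e-06 and 0.0039), where replicate 3 had 27.2 CPM and the other libraries at least 104 CPM. Adam9, able to shed HB-EGF, rose 6.09-fold and 5.77-fold at the LN2E1 sites, with a log2 fold change of 1.09 ± 0.39 in LN4K1 lungs (adjusted p = 0.0696). Furin, a convertase that matures PDGF and VEGF-C precursors and many others, rose in all 3 comparisons by 3.03 ± 0.30, 2.21 ± 0.32 and 1.24 ± 0.20. Adamts3, the protease that activates VEGF-C, fell by 2.81 ± 0.55 on the log2 scale in primary tumors and by 2.87 ± 0.86 in LN4K1 lungs, with -1.89 ± 1.62 in lymph nodes (adjusted p = 0.405). Plat, encoding tissue plasminogen activator, was at 0 or 1 count in all BM IM libraries and at a mean of 17.8 CPM in primary tumors and 1.70 CPM in LN4K1 lungs. It was between 0 and 2.71 CPM in lymph nodes, where the filter left it out of the test. Spint1, an epithelial inhibitor of the HGF activators, was at 0 in BM IMs and at means of 2.18, 1.39 and 1.31 CPM in primary tumor, lymph node and LN4K1 lung TIMs, at least 71.5-fold, 45.5-fold and 42.7-fold higher. LN4K1 lung TIM replicate 3, the library that stood apart in many marker lists, had Spint1 and Plat at 0 counts, and the part of those cells was not tested.

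**Figure D4:**
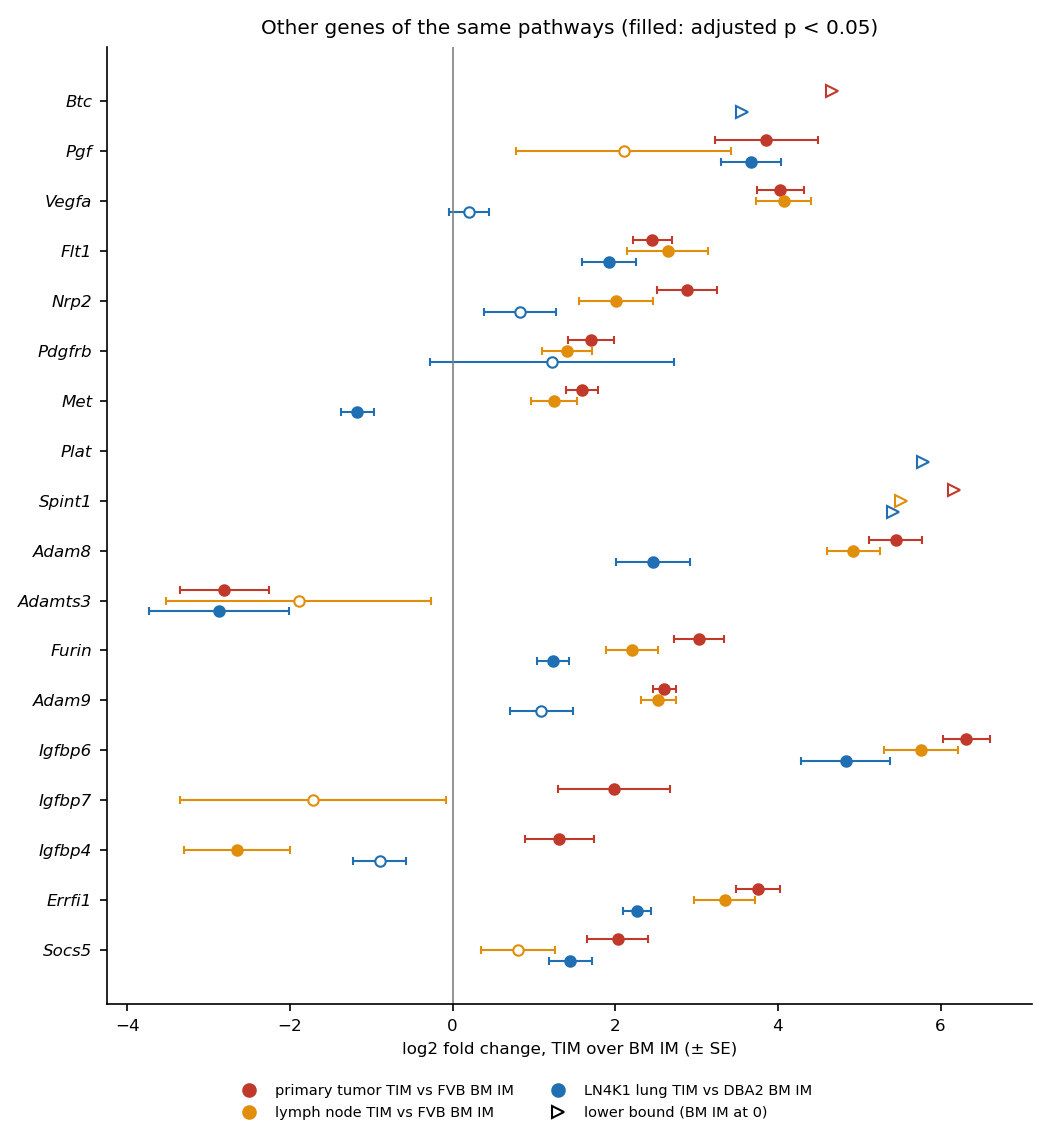
Log2 fold change (horizontal axis, ± SE) of the other ligands, receptors, proteases, binding proteins and feedback inhibitors named in the text, in primary tumor and lymph node TIMs over FVB BM IMs and LN4K1 lung TIMs over DBA2 BM IMs, with filled circles at an adjusted p under 0.05 and open triangles, which stand for no test, at the lower bounds where BM IMs were at 0, and with other changes from fewer than 10 counts in every BM IM library not drawn. Met lay at 1.59 and 1.25 in the LN2E1 model and at -1.17 in LN4K1 lungs, and Errfi1 and Furin lay above 0 in all 3 comparisons.

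Of 11 IGF-binding proteins and genes of IGF release, 4 of 7 rose in primary tumors, 1 of 4 rose and 1 fell in lymph nodes, and 2 of 6 rose in LN4K1 lungs, with medians of 3.11, 0.12 and 5.18 on the log2 scale. Beside these counts, 33.3%, 20.2% and 13.9% of all genes rose, and 28.6%, 17.2% and 11.0% fell. In LN4K1 lungs Igfbp3, Igfbp5 and Igfbp7 had fewer than 10 counts in every BM IM library, and without them 1 of 3 rose and the median was -0.89. Over all 6 the median was 3.87 with Igfbp3, at 0 in DBA2 BM IMs, set to its lower bound. In primary tumors, without Igfals, 4 of 6 rose with a median of 2.58. Igfbp6, which prefers IGF-2, rose 79.7-fold, 54.2-fold and 28.5-fold (adjusted p = 2.7e-07, 9.87e-06 and 0.000205). Igfbp4, which holds IGF-1 inactive, rose by 1.31 ± 0.42 in primary tumors and fell by 2.66 ± 0.65 on the log2 scale in lymph nodes, where replicate 1 had 0.690 CPM and the other libraries at least 10.4 CPM, with -0.89 ± 0.33 in LN4K1 lungs (adjusted p = 0.0747). Igfbp7, also made by endothelium, rose by 1.99 ± 0.69 in primary tumors, from a mean of 1.25 CPM in FVB BM IMs, and its difference in lymph nodes was -1.72 ± 1.64 (adjusted p = 0.458), with 0 counts in 2 of 5 libraries. It had between 0.765 and 8.13 CPM in LN4K1 lung TIMs, whereas the DBA2 BM IM libraries had 4, 0 and 0 counts, so no fold is given. Of the 6 EGFR feedback inhibitors, 4 of 6 rose in primary tumors, 2 of 5 in lymph nodes and 2 of 4 in LN4K1 lungs. These stand beside the same shares of all genes, and their medians were 1.68, 0.82 and 0.96. Errfi1, which encodes an inhibitor that binds the EGFR kinase and is induced by EGFR signalling among other stimuli, rose 13.6-fold, 10.2-fold and 4.82-fold (adjusted p = 3.29e-06, 9.58e-05 and 2e-05), and Socs5, which promotes EGFR turnover, rose by 2.03 ± 0.37 in primary tumors and 1.45 ± 0.26 in LN4K1 lungs, with 0.81 ± 0.45 in lymph nodes (adjusted p = 0.199).

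The genes most like each ligand across the 21 libraries were searched among 12530 genes by Pearson's r of log2 CPM, as a description, since libraries of a group share their source and sort. Hbegf was most like Junb (r = 0.949) and Egr2 (0.948). Hgf was most like Parp11 (0.934) and Stat2 (0.929). Areg was most like Cp (0.907) and Tctn3 (0.902), Ereg like Krt7 (0.876) and Osm (0.873), and Vegfc like Rnf6 (0.888) and Hsf2bp (0.873). The likeness was weaker for Pdgfa with Cyp2d22 (0.815) and Cacnb2 (0.774), Pdgfb with Arc (0.741) and Strip2 (0.718), Igf1 with Ctnnal1 (0.840) and Wdr34 (0.815) and Vegfb with Slc43a1 (0.854) and Pebp1 (0.837).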

How the data were processed

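RNA of sorted IMs was amplified with the SMARTer Ultra Low kit, made into Nextera XT libraries without strand information and sequenced. Per the study's methods, the authors trimmed reads with BBDuk, aligned them to mm10 with BBMap and deposited raw read counts per gene made with featureCounts (1.5.2, with SAMtools 1.8 in the submitters' processing notes). The annotation and counting settings are not given in the sources used here. All 21 libraries were used, with groups from the labels.

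The tests ran under R (version 4.3.3) and edgeR (4.0.16), as separate fits of 2 groups each (4 groups for the interaction), with TMM scaling, edgeR's default filter (minimum count 10, minimum total 15), the robust quasi-likelihood test and Benjamini-Hochberg adjustment over all genes tested. The SE is the absolute log2 fold change divided by the square root of F, which is approximate. Log2 CPM used a prior count of 2. The alternatives were DESeq2 1.42.0, 2 other filters, DESeq2 size factors, 1 fit over the 5 groups, a block for the replicate number and the removal of each library. Scripts were tested on simulated data. No 2 libraries of a group had near-identical counts (chi-square per degree of freedom between 45.5 and 860 over 36 pairs). Python 3.11.15 with scipy 1.17.1 gave the exact permutation tests, and pandas 2.3.3, numpy 2.4.6 and matplotlib 3.10.9 the rest.

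The ligands, the lists and the tests were chosen with earlier results of these data known. The counts without genes under 10 counts in every BM IM library, and Dixon's test of the named list genes, were added after their values were seen. The text names all 9 ligands, the 2 genes most like each, and the list genes called with an absolute log2 fold change above 1 in at least 2 of the 3 comparisons of TIMs with BM IMs, up to 6 per list. Gene positions and lengths came from GENCODE vM21 (GRCm38) by symbol. Promoter windows came from RefSeq (GRCm38.p6), and sequences of Hbegf, Ereg and Pdgfb are not used here. Vegfd, Trac, Siglecf, Adgre1 and Ly6g are not analysed here.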

Additional observations from a re-analysis of the deposited data

Results flagged for a closer look

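The change from BM IMs to TIMs differed between LN2E1 primary tumors and LN4K1 lungs for 11 of the named genes, each tested as an interaction by edgeR's quasi-likelihood test with an adjusted p under 0.05 over all genes, where 26.5% of genes were called. The named genes other than the ligands were picked by their calls in comparisons of these same libraries. Their number is thus no support when set beside that share. Of the 9 ligands, 1 was called. Strain, line, route and organ cannot be told apart in this test. For Hgf the primary tumor change exceeded the LN4K1 lung change by 1.05 on the log2 scale, and DBA2 BM IMs began from the higher level. For its receptor Met the difference was 2.78, with a rise in one model and a fall in the other. Among ligands and co-receptors it was 3.85 for Vegfa and 2.07 for Nrp2. Among proteases it was 3.00 for Adam8, 1.81 for Furin and 1.53 for Adam9. It was 1.50 for Igfbp6, 2.22 for Igfbp4 and 1.51 for Errfi1. It had the opposite sign for Igfbp7, at -5.70, a fitted value and no bound, since DBA2 BM IMs held at most 4 counts in any library.

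By Dixon's test, no library stood out in the 26 groups of 5 libraries tested for the 9 ligands. Over the ligands and the named genes together, 5 of 82 groups held a library that did, where chance gives about 1 in 20. Primary tumor TIM replicate 3 was high for Adam8 (1232 CPM) and Furin (107 CPM), and LN4K1 lung TIM replicate 3 was low for Adam8 (27.2 CPM). Lymph node TIM replicate 1 was high for Spint1 (4.01 CPM) and low for Igfbp4 (0.690 CPM).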

How the results depend on the processing

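No ligand that had passed its test turned direction under the alternatives run. Leaving out 1 library kept 428 of 474 fold-change results on their side of the threshold and direction, with 26 lost calls, 6 gained calls and 14 changes of sign. The other alternatives kept 284 of 310, with 11 lost, 11 gained and 4 changes of sign. Causes were not tested, other than that a filter of 10 counts in every library leaves fewer ligands to test. With that filter only Pdgfa, Igf1, Hgf and Vegfb were left to test in primary tumors, and 2 were called (6 as reported). Pdgfa and Hgf were left in lymph nodes, and 1 was called (2 as reported). Hbegf, Pdgfa and Hgf were left between lymph nodes and primary tumors, and 1 was called (0 as reported, and 1 also with no filter). With all 5 groups fitted together 4 were called in lymph nodes, 2 in LN4K1 lungs (4 as reported), 1 between the LN2E1 sites and 1 between the strains (2 as reported), and the stricter rule called 1 in primary tumors and 2 in lymph nodes. DESeq2, with or without shrinkage, called 4 in lymph nodes (42.9% of all genes without shrinkage) and 1 between the sites, and by the stricter rule 5, 2 and 2 in primary tumors, lymph nodes and LN4K1 lungs (0, 0 and 1 as reported, and 27.0%, 17.6% and 11.5% of all genes without shrinkage). The 4 that DESeq2 called in lymph nodes include Vegfc, and the 5 of the stricter rule in primary tumors include Ereg, calls that are no support for a rise. The interaction had no shrunken fit. For the fits with other filters, with all 5 groups and without 1 library, the share of all genes called is not given here. Their counts of calls are thus no result about the ligands. They also include Ereg and Vegfc where these were called, and those calls are no support for a rise. Without 1 library, the calls ranged from 5 to 6 in primary tumors, 2 to 4 in lymph nodes, 1 to 4 in LN4K1 lungs, 0 to 4 between the sites, 0 to 3 between the strains and 0 to 1 for the interaction, and the stricter rule gave 0 to 1 in primary tumors (Hbegf, without FVB BM IM replicate 2) and in LN4K1 lungs. Signs changed only for differences that had not passed. Over these fits the log2 fold change of Pdgfb ranged from -0.016 to 1.50 in lymph nodes, -0.42 to 0.74 in LN4K1 lungs and -1.40 to 0.13 between the strains, and that of Areg between the strains from -1.14 to 0.035. The interaction ranged from -0.57 to 0.35 for Hbegf, -0.81 to 0.045 for Pdgfa, -0.062 to 1.53 for Pdgfb and -1.28 to 4.45 for Vegfc.

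The libraries were not treated as paired by replicate number. Of 17 correlations of same-numbered deviations, 2 were over 0.1 (range -0.209 to 0.125). These values cannot show whether same-numbered libraries came from the same mouse, and the labels do not say. With the replicate number as a block, 4 ligands, Ereg among them, were called in primary tumors, without Areg (adjusted p = 0.0520) and Vegfc (0.0606). In lymph nodes 1 was called, without Hbegf (0.0575). In LN4K1 lungs 1 was called, without Areg (0.119), Pdgfa (0.231) and Ereg, and the stricter rule called 0. This fit called 40.9%, 26.9% and 9.72% of all genes in these comparisons. With this block the log2 fold change in lymph nodes was -0.26 for Areg and -1.07 for Pdgfb, that of Pdgfb in LN4K1 lungs was -1.96 and the interaction of Hbegf was 0.10. At this depth 3 counts, or at most 0.0405 CPM, set the limit for Ereg and Vegfc in BM IMs.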

Other observations

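Tgfa, encoding transforming growth factor alpha, was chosen here after its values were seen. Like Ereg and Btc it had 0 counts in all FVB BM IM, DBA2 BM IM and lymph node TIM libraries, and it had between 0.0552 and 0.884 CPM in primary tumor TIMs and between 0 and 0.452 CPM in LN4K1 lung TIMs. Pdgfra, the receptor of PDGF-A and a defining fibroblast gene, was likewise chosen after its values were seen. It was at 0 in FVB BM IMs, between 13.9 and 48.8 CPM in primary tumor TIMs and at most 7.33 CPM in any other library.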
